A study of Mus musculus with 70 samples.

Results

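Cells that lack CD45, the surface protein carried by leukocytes, were compared between histotripsy-abscopal and control B16F10 melanomas 7 days after sham or partial histotripsy ablation. B16F10 is a pigmented mouse melanoma cell line, and histotripsy is focused ultrasound that breaks up tissue by cavitation. The comparison holds the 15 CD45- libraries labelled day 7 and either abscopal (n = 4) or control (n = 11), of 70 libraries in the series, and was made over every named gene of their count table. All mice were C57BL/6 of both sexes, aged 6 to 8 weeks, with tumors injected in Matrigel on both flanks. Control tumors came from mice given a unilateral sham procedure. An abscopal tumor was the untouched tumor on the flank opposite to an ablated one. The ablated tumors themselves (n = 3 libraries on day 7, called treated) share the controls with the abscopal ones and are given beside them. Tumors were digested with collagenase and hyaluronidase and sorted by flow cytometry, and RNA was read with a 3′ tag method (QuantSeq). Mice were not randomized, and the labels give neither the mouse nor its sex nor a batch for a library, so p-values measure the spread between these libraries, which may in part be technical.

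A CD45- sort of a melanoma takes all cells without the leukocyte marker. Most are tumor cells, and the rest are stroma: fibroblasts, which lay down collagens and other matrix proteins, pericytes, which wrap small vessels, and endothelial cells. Stromal cells also secrete chemokines, small proteins that draw leukocytes along a gradient, and interferons induce antigen presentation genes in nearly every cell type. An abscopal response is one that is seen in a tumor that was not itself treated.

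The 15 libraries held 1335518 to 3132646 counts, and the 18 CD45- libraries of day 7 were fitted together. Ptprc, which encodes CD45, had 0 or 1 count in each library. Leukocyte marker sums were low but not at 0: over the abscopal and control libraries, 10 T cell markers summed to 2.34 to 7.32 CPM (counts per 1000000 counts of a library), 8 NK cell markers to 0.36 to 3.17, 8 B cell markers to 0 to 1.63 and 8 pan-leukocyte markers to 87.1 to 144.7 CPM. In no leukocyte list were all members at 0, and a count of 0 in this table does not show that a cell type was absent, since mt-Co2 and mt-Atp6, which every cell uses, are listed at 0 in all 18. The summed level of 9 melanoma markers, in CPM, was 29829 to 35824 in abscopal and 29446 to 34729 in control libraries.

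Of 10996 genes tested with edgeR's quasi-likelihood test, 32 passed a Benjamini-Hochberg adjusted p of 0.05 between abscopal and control tumors, 0.291% of those tested, with 29 higher (0.264%) and 3 lower (0.0273%) in abscopal tumors. Without adjustment, 1051 genes had a p under 0.05, of which 640 had higher levels in abscopal tumors (5.82%) and 411 had lower ones (3.74%). Over all genes tested the median log2 fold change was -0.01. The higher genes included matrix proteins (Mgp, Tnc, Cilp, Mmp3, Bgn, Timp1, Col8a1, Col4a1, Col6a3, Itih5 and Vcan), chemokines and a cytokine (Cxcl14, Cxcl12, Cxcl9, Cxcl5, Cxcl1, Ccl2 and Il33), and others such as Pdgfrb, Cd93, Igf1, Lpl and Sod3. This grouping was made by hand. The fibroblast, stromal matrix or pericyte lists held 7 of the 29, and the cytokine list 5. Some were more abundant in the CD45+ cells of day 7 controls. Cd93 averaged 221 CPM there against 2.59 in CD45- controls, Lpl 310 against 1.10, Ccl2 311 against 0.78 and Cxcl9 229 against 3.42. Others were not, such as Mgp (0.16 against 3.95) and Tnc (0.32 against 2.33). Each level is relative to its own total and was untested between fractions. The log2 fold changes of the 29 ran from 0.42 to 4.93. Of the 29, 27 had their highest level in abscopal library 1 (5.94% of all genes tested) and the other 2 in abscopal library 2, and in 28 both of these libraries were above every control, as were 343 of all genes tested (3.12%). Abscopal library 4 was above every control for 17 of the 29, and abscopal library 3 for 5.

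Stromal content moved with these calls. The summed level of 10 fibroblast markers was 2759, 1518, 76.5 and 485 CPM in abscopal libraries 1 to 4, and its lowest, median and highest values in control libraries were 21.1, 68.0 and 759 CPM. Abscopal libraries 1 and 2 were thus above every control, and libraries 3 and 4 lay within the control range. The sum for 8 pericyte and smooth muscle markers was 122.9, 39.5, 8.18 and 11.4 CPM in the abscopal libraries against 1.87 to 20.9 CPM in controls. For 10 endothelial markers it was 193.5, 84.0, 55.1 and 74.9 CPM against 54.0 to 96.8 CPM, so that library 1 alone stood above the controls. Markers of 8 adipocyte genes summed to 34.8 CPM in abscopal library 1 and to 2.87 to 6.23 CPM in the controls. Among treated libraries, the third had the highest fibroblast sum of the 18, 4307 CPM, against 216 and 94.5 CPM in the other two, and it was above every control for 28 of the 29 genes called higher in abscopal tumors (background over all genes tested, 11.3%). In bulk libraries, more cells of a type and more RNA per cell cannot be told apart, and the part of stromal content in each result below was not tested apart from the alternatives given. With abscopal libraries 1 and 2 left out, 0 genes passed (884 at an unadjusted p under 0.05), and with the log2 fibroblast sum as a covariate 0 passed as well (869). All 29 higher genes kept a log2 fold change above 0 with the covariate, but their median went from 3.23 to 0.82.

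**Figure D1:**
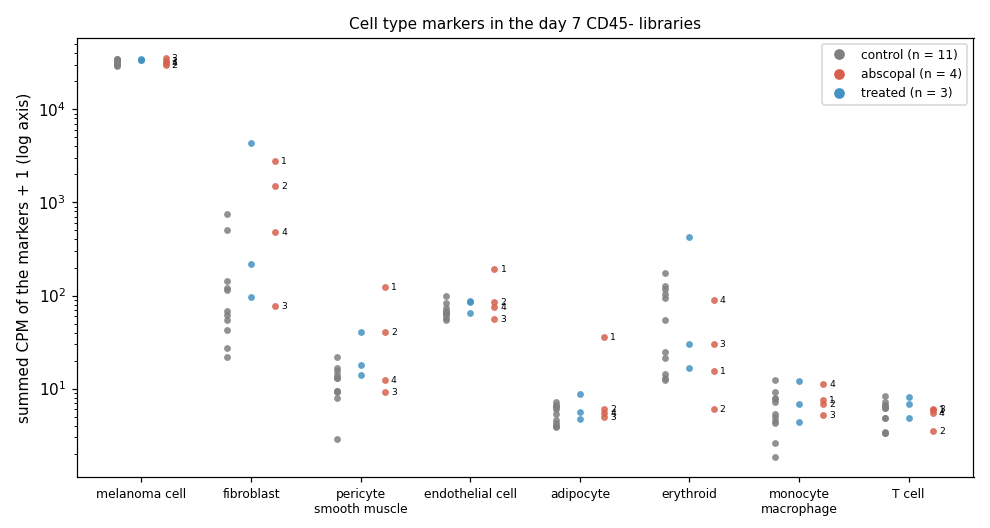
Summed CPM plus 1 of the marker genes of 8 cell types in each day 7 CD45- library, on a log axis. Each point is a library, coloured by group, and numbers mark the abscopal libraries: libraries 1 and 2 lie above all 11 controls for fibroblast and pericyte markers, while melanoma markers lie between 29446 and 35824 CPM in the 15 abscopal and control libraries.

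Spp1 had the smallest p of all genes. It encodes osteopontin, a secreted glycoprotein that binds integrins and CD44. Its level was 47.5, 50.4, 11.4 and 19.7 CPM in abscopal libraries 1 to 4, and between 1.26 and 9.90 CPM in controls, with a median of 4.21. All 4 abscopal libraries were above all 11 controls, so that the groups did not overlap, which held for 39 of the genes tested (0.355%) and for 5 of the 32 called. The log2 fold change was 2.79 (SE 0.37, edgeR adjusted p = 0.0016). Spp1 (chromosome 5, 104435118 to 104441050, plus strand, GRCm38) was called with each of the 15 libraries left out in turn. Spp1 had a log2 fold change of 1.65 without abscopal libraries 1 and 2 (adjusted p = 0.53) and 1.61 with the fibroblast covariate (adjusted p = 0.31). In treated libraries it was 5.20, 3.36 and 17.9 CPM. Spp1 is also a gene of macrophages, and in the CD45+ cells of the same day it averaged 681 CPM in abscopal and 882 CPM in control libraries, each relative to its own total and untested across tables, while 12 monocyte and macrophage markers summed to 4.27 to 10.2 CPM in abscopal and 0.84 to 11.5 CPM in control CD45- libraries.

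Nudt4 was the other gene higher in abscopal tumors whose groups did not overlap. It encodes an enzyme that cleaves diphosphoinositol polyphosphates. Its level was 80.3, 62.5, 70.1 and 71.1 CPM in abscopal and 46.2 to 60.9 CPM in control libraries. The rise was small (log2 fold change 0.42, SE 0.09, adjusted p = 0.036) and differed little without abscopal libraries 1 and 2 (0.38) or with the fibroblast covariate (0.37), though neither passed (adjusted p = 0.59 and 0.49).

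Of the 22 pathway lists, stromal matrix had the highest median. Of 35 genes of stromal matrix, 33 were tested, 32 had a log2 fold change above 0 and 6 rose (Tnc, Mmp3, Bgn, Timp1, Col4a1 and Col6a3), with a median of 2.0. Mgp, matrix Gla protein, an inhibitor of calcification, was at 87.8 and 51.2 CPM in abscopal libraries 1 and 2, and at 3.20 and 4.44 CPM in libraries 3 and 4. Its controls lay between 1.16 and 6.74 CPM, so the log2 fold change of 3.26 (SE 0.53, adjusted p = 0.015) came with 2 abscopal libraries inside the control range, and it turned to -0.13 without libraries 1 and 2. Tnc, which encodes tenascin C, a matrix protein of remodeling tissue, was at 69.9, 31.5, 4.98 and 7.62 CPM against 0 to 7.02 CPM in controls. Here libraries 1, 2 and 4 were above every control (log2 fold change 3.64, SE 0.65, adjusted p = 0.028). Bgn, biglycan, was at 125.8, 96.5, 4.62 and 18.4 CPM against 2.38 to 21.0 CPM, with libraries 3 and 4 among the controls. Timp1, an inhibitor of matrix metalloproteinases, was at 86.5, 47.0, 13.5 and 19.0 CPM against 11.2 to 22.1 CPM, and Mmp3, which encodes the metalloproteinase stromelysin, at 28.6, 15.5, 0 and 1.90 CPM against 0 to 1.44 CPM. The collagen chains Col4a1 of basement membranes and Col6a3 of microfibrils had log2 fold changes of 1.38 and 3.08. Col4a1 was at 174.3, 56.2, 29.9 and 38.1 CPM against 23.8 to 36.2 CPM and Col6a3 at 105.7, 31.9, 2.85 and 15.2 CPM against 0.47 to 9.73 CPM, and without abscopal library 1 their values were 0.47 and 1.77 and neither passed (adjusted p = 0.71 for both). For Col1a1, the main fibrillar collagen chain of fibroblasts, the value was 2.70 without passing (adjusted p = 0.19). Col1a1 was at 860, 527, 20.6 and 169 CPM in abscopal libraries against 5.62 to 300.3 CPM in controls. Its value turned to -0.24 with the fibroblast covariate. Col1a1 is itself the most abundant member of that sum, so the covariate in part takes out the gene itself. Without abscopal libraries 1 and 2 the list had 22 of 31 members above 0 and a median of 0.38. With controls 1 and 2 left out as well, 25 of 30 were above 0 and the median was 0.80. The covariate gave 21 of 33 and 0.18.

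**Figure D2:**
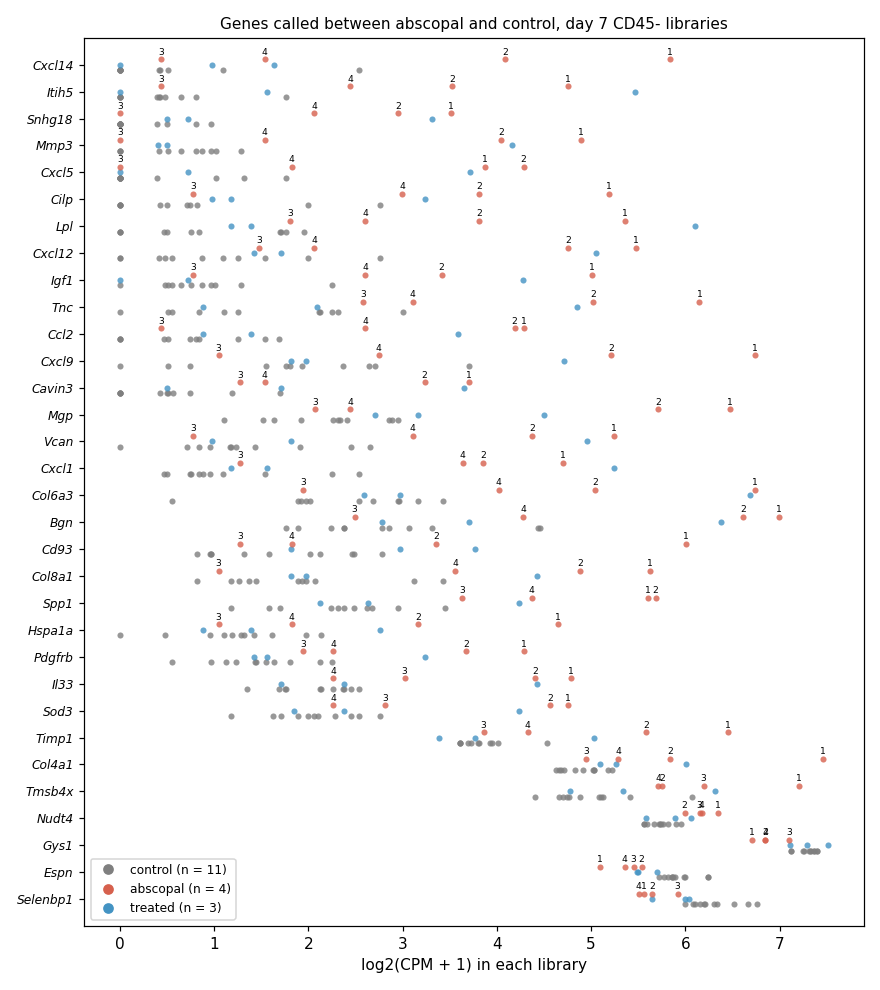
Level of the 32 called genes in each day 7 CD45- library, as log2 of CPM plus 1, ordered by log2 fold change. Points are libraries coloured by group and numbers mark the abscopal libraries: libraries 1 and 2 stand apart from the 11 controls for nearly all genes, and only Spp1, Nudt4, Gys1, Espn and Selenbp1 have all 4 abscopal libraries on one side of the controls.

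Pdgfrb, the platelet-derived growth factor receptor of pericytes and fibroblasts, was at 18.5, 11.8, 2.85 and 3.81 CPM in abscopal against 0.47 to 3.74 CPM in control libraries (log2 fold change 2.34, SE 0.45, adjusted p = 0.028). Rgs5, a regulator of G protein signaling typical of pericytes, was at 54.3 CPM in abscopal library 1 and at 1.90 to 7.98 CPM in the others, against 0.39 to 9.63 CPM in controls, and did not pass (adjusted p = 0.078). Cd93, a glycoprotein of endothelial cells, was at 63.4 CPM in library 1 and at 1.42 to 9.24 CPM in the other 3. It was called (log2 fold change 2.91), but its value turned to -0.54 without libraries 1 and 2. Lpl, lipoprotein lipase, reached 40.0 CPM in library 1 and 67.8 CPM in the third treated library, and its controls were at 0 to 2.87 CPM. Rgs5 and Pdgfrb are themselves members of the pericyte sum given above.

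Chemokines formed the second group. Of 40 genes of inflammatory cytokines and chemokines, 19 were tested, all 19 had a log2 fold change above 0, 5 rose (Ccl2, Cxcl12, Il33, Cxcl5 and Cxcl1) and the median was 1.49. The filter asked for about 4.18 CPM in 3 libraries, a level that no control reached for Ccl2 and Cxcl5. Such members entered through abscopal and treated libraries where they were high, so the count above 0 and the median can lean upward. The median was 0.65 to 1.61 with a library left out, 0.52 without abscopal libraries 1 and 2 (12 of 15 above 0) and 0.49 with the fibroblast covariate (14 of 19). Cxcl9 and Cxcl14, which are outside that list, rose too. Ccl2, which draws monocytes, was at 18.5, 17.2, 0.36 and 5.08 CPM in abscopal libraries and at 0 to 2.23 CPM in controls (log2 fold change 3.57, SE 0.66, adjusted p = 0.028). Cxcl1, a ligand of the neutrophil receptor Cxcr2, was at 25, 13.4, 1.42 and 11.4 CPM against 0.39 to 4.8 CPM (3.19, SE 0.69, adjusted p = 0.043). In both, library 4 joined libraries 1 and 2 above the controls, and library 3 did not. Cxcl5, another Cxcr2 ligand, was at 13.7, 18.5, 0 and 2.54 CPM against 0 to 2.40 CPM. Cxcl9, which is induced by interferon gamma and draws T cells through Cxcr3, was at 106.0, 36.1, 1.07 and 5.71 CPM against 0 to 12 CPM (3.51, SE 0.69, adjusted p = 0.028), so that libraries 3 and 4 were within the control range. Cxcl10, another Cxcr3 ligand, was at 9.24 to 16.6 CPM in abscopal and 3.36 to 18.6 CPM in control libraries and did not pass (0.27, adjusted p = 0.86). Cxcl12, the ligand of Cxcr4 that stromal cells make, was at 43.6, 26.0, 1.78 and 3.17 CPM against 0 to 5.75 CPM. Cxcl14, an orphan chemokine of skin and stroma, had the largest fold of the called genes (log2 fold change 4.93, SE 0.82, adjusted p = 0.015), with 55.9, 16, 0.36 and 1.90 CPM in abscopal libraries and a control median of 0 CPM. Il33, an alarmin of the nuclei of barrier and stromal cells, was at 26.7, 20.1, 7.11 and 3.81 CPM against 1.54 to 4.8 CPM. Neutrophil markers summed to 0.64 to 2.94 CPM in abscopal and 0 to 1.38 CPM in control libraries.

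Because these chemokines had their highest levels in the same libraries, their promoters are shown. RefSeq promoters of GRCm38.p6 were at hand for 4 of the 6 called chemokine genes, Cxcl1, Cxcl9, Cxcl12 and Cxcl14, and not for Ccl2 and Cxcl5. The 250 bases before each start are printed 5′ to 3′ on the gene's strand, with capitals at matches, on either strand, to GGGNNTTTCC (the kB element bound by NF-kB factors), TTCNNNGAA (the interferon gamma-activated site, GAS), TTTCNNTTTC (the core of the interferon response element) and TATAAA (the TATA box). Of 32851 promoter windows of this length, 1.41% held the first motif, 7.02% the second, 2.98% the third and 12.4% the fourth.
Cxcl1 (chr5:90890995-90891244, plus strand): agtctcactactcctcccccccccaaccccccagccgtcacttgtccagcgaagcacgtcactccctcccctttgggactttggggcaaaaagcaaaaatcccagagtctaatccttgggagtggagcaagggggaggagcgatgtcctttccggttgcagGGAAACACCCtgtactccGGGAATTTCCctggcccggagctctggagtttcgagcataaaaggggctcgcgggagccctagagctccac
Cxcl9 (chr5:92328080-92328329, minus strand): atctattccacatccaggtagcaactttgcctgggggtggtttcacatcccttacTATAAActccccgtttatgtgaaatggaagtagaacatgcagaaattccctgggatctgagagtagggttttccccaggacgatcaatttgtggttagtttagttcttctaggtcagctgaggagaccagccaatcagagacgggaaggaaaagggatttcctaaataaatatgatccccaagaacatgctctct
Cxcl12 (chr6:117168285-117168534, plus strand): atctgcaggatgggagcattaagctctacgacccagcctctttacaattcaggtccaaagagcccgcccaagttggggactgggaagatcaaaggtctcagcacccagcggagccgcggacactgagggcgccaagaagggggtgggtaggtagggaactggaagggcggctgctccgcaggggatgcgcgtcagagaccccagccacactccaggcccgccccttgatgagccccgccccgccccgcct
Cxcl14 (chr13:56296552-56296801, minus strand): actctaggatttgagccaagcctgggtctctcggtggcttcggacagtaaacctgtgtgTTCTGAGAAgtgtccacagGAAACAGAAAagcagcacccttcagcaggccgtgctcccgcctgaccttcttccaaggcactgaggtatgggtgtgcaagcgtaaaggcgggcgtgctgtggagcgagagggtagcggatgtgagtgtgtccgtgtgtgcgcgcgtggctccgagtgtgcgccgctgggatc
The Cxcl1 window held 2 matches to the kB motif, starting 89 and 71 bases before the start. The Cxcl14 window held 1 match to GAS and 1 to the interferon element core, starting 191 and 172 bases before it. Cxcl9 held a TATAAA 195 bases before its start, a match of letters that at this distance does not mark a TATA box. The Cxcl12 window held none of the 4 motifs. The matches are descriptions of sequence and no test of binding was made.

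Interferon-induced and antigen presentation genes were higher as groups by their medians, with few calls. Of 44 type I interferon-induced genes, 37 were tested and 36 had a log2 fold change above 0, with a median of 0.51 and none called. Of 33 interferon gamma response genes, 25 were tested, 24 were above 0 and 1 (Cxcl9) rose, with a median of 0.67. For MHC class I presentation, 16 of 18 tested were above 0 (median 0.60) and none passed, and for MHC class II all 6 tested were above 0 (median 0.72) and none passed. Over all genes tested, 48.6% had a log2 fold change above 0. B2m, the light chain of MHC class I, was at 1603, 1512, 1332 and 2033 CPM in abscopal libraries, and its control libraries had a lowest value of 496, a median of 867 and a highest of 1747 CPM. Only library 4 was above the highest control, and all 4 were above the control median (0.65, SE 0.30, adjusted p = 0.50). H2-K1, a class I heavy chain, was at 448, 319, 361 and 350.4 CPM against 157 to 411 CPM in controls (0.55, adjusted p = 0.50). Psme2, a proteasome activator subunit, was at 15.5 to 21.7 CPM against 5.24 to 17.3 CPM (0.87, adjusted p = 0.22), and Erap1, which trims peptides for class I, at 15.7 to 27.3 CPM against 7.02 to 18.5 CPM (0.71, adjusted p = 0.26). The class II accessory gene H2-DMb1 was at 34.8 to 54.0 CPM against 10.1 to 46.2 CPM (0.79, adjusted p = 0.32). Of these genes, B2m, H2-DMb1 and Erap1 had their highest level in library 4, H2-K1 in library 1 and Psme2 in library 3.

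**Figure D3:**
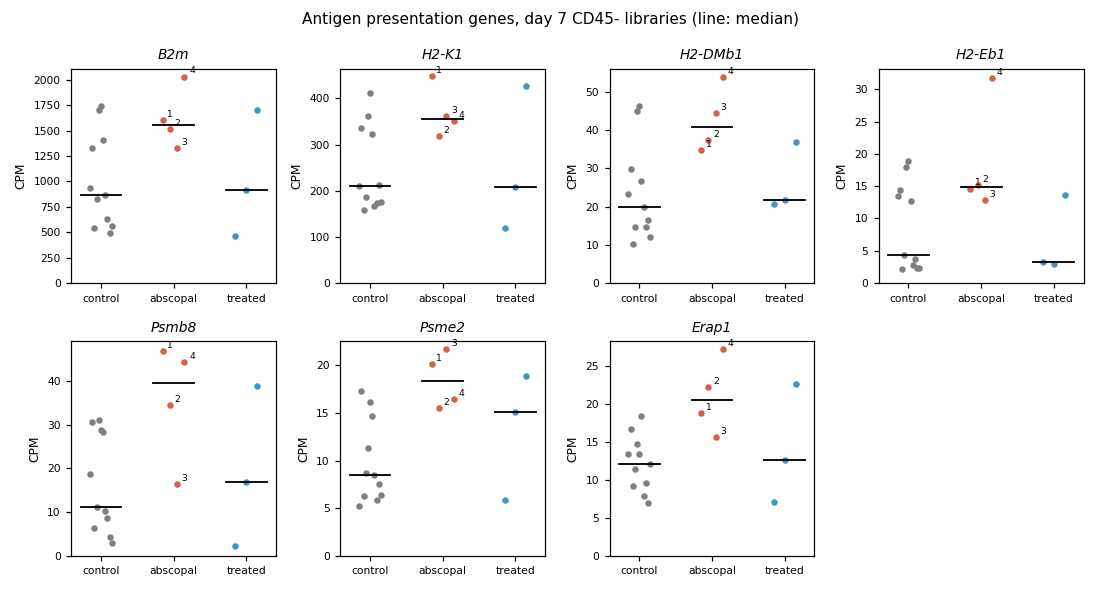
CPM of 7 antigen presentation genes in each day 7 CD45- library by group, with a line at each group's median and numbers at the abscopal libraries. The abscopal medians lie above the control medians in each panel, the ranges overlap in each, and the controls of H2-Eb1 lie in an upper and a lower cluster.

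The controls were themselves spread. The summed type I interferon list was at 1279, 1391, 1343, 1282 and 1357 CPM in control libraries 1, 2, 5, 6 and 7 and at 613 to 904 CPM in the other 6, and the abscopal libraries were at 1501, 1383, 1081 and 1349 CPM. Abscopal library 3 thus lay between the upper and the lower controls. The other abscopal libraries lay beside the upper controls, with library 1 above all controls. The class I list summed to 4962, 4670, 4242 and 5194 CPM in abscopal and 2999 to 5091 CPM in control libraries. Without abscopal libraries 1 and 2 the median was 0.31 for type I genes, 0.48 for the interferon gamma list, 0.54 for class I and 0.96 for class II. With controls 1 and 2 left out as well, these medians were 0.51, 0.59, 0.63 and 1.09. With the fibroblast covariate the medians of these lists were -0.04, 0.06, 0.10 and 0.10, and 16 of 37, 14 of 25, 12 of 18 and 3 of 6 members were above 0. Slfn5, a Schlafen family gene, was at 24.4, 13.9, 0.36 and 3.17 CPM against 0.42 to 5.75 CPM, and Sp100, a nuclear body protein, at 28.3, 15.5, 17.4 and 22.9 CPM against 2.34 to 18.3 CPM, and neither passed (adjusted p = 0.14 and 0.29).

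Cell death and danger signal genes gave few calls. The study stained for phosphorylated forms of the Ripk3 and Mlkl proteins, a byproduct of ferroptosis and the nuclear location of HMGB1. RNA levels do not measure these. At an earlier time, the study also reported higher RNA of necroptosis genes in treated but not in abscopal tumors. Of 28 ferroptosis and glutathione genes tested, 15 were above 0, none passed and the median was 0.01. Lytic cell death genes had 9 of 16 above 0, none called and a median of 0.04. Gsdmd, which encodes the pore protein of pyroptosis, was at 9.43, 5.46, 5.34 and 6.98 CPM in abscopal and 1.35 to 5.99 CPM in control libraries (1.17, SE 0.33, adjusted p = 0.15). Mlkl, the pore protein of necroptosis, was at 21.7 to 34.9 CPM against 12.6 to 30.0 CPM (0.39, adjusted p = 0.52), and its kinase Ripk3 had at most 6 counts in a library. Acsl4, an acyl-CoA ligase of ferroptosis, was at 36.8 to 59.8 CPM against 30.7 to 57.1 CPM (0.12, adjusted p = 0.83). Among 13 danger signal genes tested, 2 rose, Il33 and Hspa1a, and the median was 0.06. Hmgb1 and Calr, which encode the proteins HMGB1 and calreticulin, had log2 fold changes of -0.08 and -0.03 (adjusted p = 0.91 and 0.98). Hspa1a, an inducible HSP70, was at 24.1, 7.98, 1.07 and 2.54 CPM against 0 to 3.40 CPM (2.60, SE 0.56, adjusted p = 0.043). Its near-identical copy Hspa1b was at 218, 118.8, 486 and 353 CPM against 68.1 to 420 CPM and did not pass (0.38, adjusted p = 0.77), and reads of the pair can be assigned to either. For 27 heat shock chaperones the median was 0.00.

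In the other direction 3 genes fell, and in each the 4 abscopal libraries lay below all 11 controls, a lack of overlap in this direction that 13 of the genes tested had. Selenbp1, a selenium-binding methanethiol oxidase, was at 46.2, 49.1, 59.4 and 44.4 CPM in abscopal and at 63.0 to 107.2 CPM in control libraries (log2 fold change -0.69, SE 0.13, adjusted p = 0.028). Its paralog Selenbp2 is near-identical, so its count is uncertain. Espn, which encodes the actin-bundling protein espin, was at 33.2, 45.3, 42.7 and 40.0 CPM against 51.6 to 74.4 CPM (-0.62, SE 0.11, adjusted p = 0.028). Gys1, the glycogen synthase of muscle and most other tissues, was at 103.1, 113.8, 136.2 and 114.3 CPM against 137.9 to 167.9 CPM (-0.45, SE 0.09, adjusted p = 0.028). These differences were under 1 log2 unit, and they stayed near their size without abscopal libraries 1 and 2 (-0.65, -0.60 and -0.38) and with the fibroblast covariate (-0.59, -0.66 and -0.37), none of which passed (adjusted p from 0.31 to 0.61). They lie on chromosomes 3, 4 and 7 (Selenbp1 at 94933056 to 94944758 on the plus strand, Espn at 152120331 to 152152371 on the minus strand and Gys1 at 45434844 to 45456619 on the plus strand).

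Metabolic lists had medians below 0 with none called. Of 37 glycolysis and hypoxia genes tested, 26 were below 0, with a median of -0.13. Slc16a3, the lactate exporter MCT4, was at 170.4, 221.6, 182.5 and 184.1 CPM against 210.5 to 272.7 CPM (-0.38, SE 0.09, adjusted p = 0.060), with only library 2 inside the control range. Pfkl, the liver-type phosphofructokinase, was at 115.8, 116.3, 131.6 and 116.8 CPM against 133.8 to 175.2 CPM, all below the controls, and did not pass (-0.35, adjusted p = 0.090). Gpi1 and Ldha, enzymes of the same pathway, had values of -0.30 and -0.21 (adjusted p = 0.12 and 0.32). Of 28 cholesterol synthesis genes, 26 were below 0 (median -0.18), but with the fibroblast covariate 12 of 28 were above 0 (median -0.04) and with the replicate number as a block 11 of 28 (median -0.06). Values in the list included Scd1, a fatty acid desaturase of that list, at -0.42 and Mvd, mevalonate diphosphate decarboxylase, at -0.36 (adjusted p = 0.26 and 0.37). Of 33 genes of the ER chaperone and unfolded protein list, 24 were below 0 (median -0.07). The stress genes Chac1, Trib3 and Atf4 had values of -0.78, -0.61 and -0.30 (adjusted p = 0.096, 0.12 and 0.14), and the chaperone Hspa5 -0.11. Chac1, a glutathione-degrading enzyme, was at 23.7, 29.4, 68.3 and 38.1 CPM against 39.3 to 98.8 CPM, so 3 of 4 abscopal libraries were below every control.

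**Figure D4:**
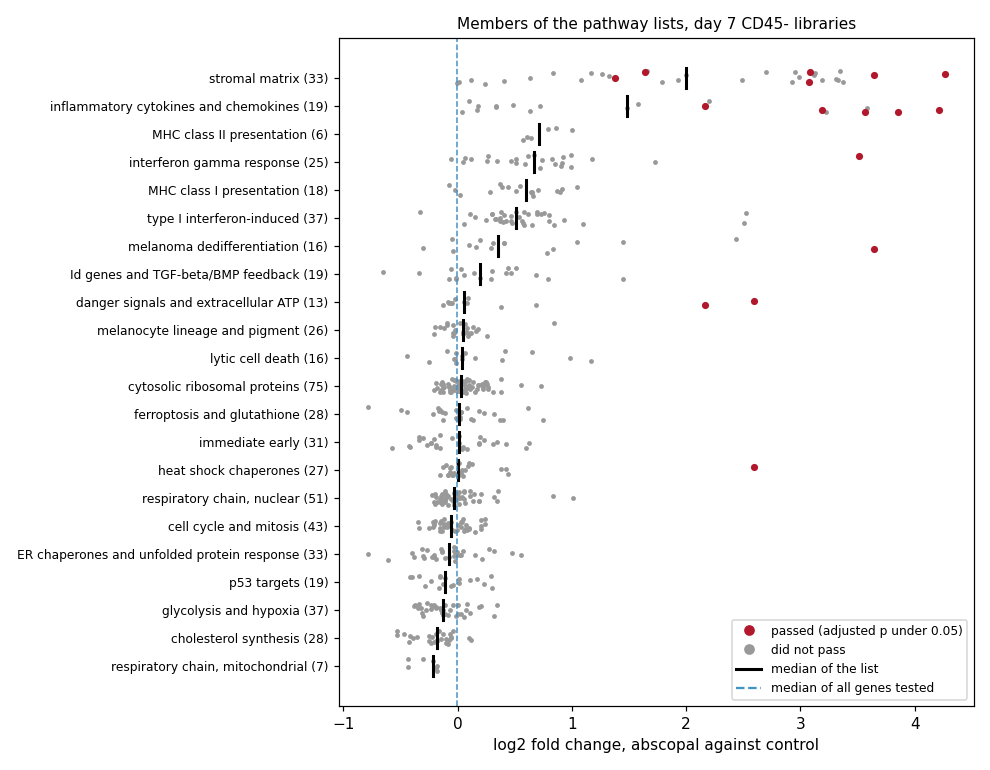
Log2 fold change between abscopal and control libraries of each tested member of the 22 pathway lists, with the number tested in brackets. Red points passed an adjusted p of 0.05, bars mark list medians and the dashed line the median of all genes: the stromal matrix and cytokine lists lie furthest to the right (medians 2.0 and 1.49), and the melanocyte lineage and cell cycle lists lie around 0.

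Lineage and cell cycle genes of the melanoma cells had medians near 0. Melanocyte lineage genes had 15 of 26 above 0 (median 0.05) and none called. Pmel, a melanosome matrix protein, was at 3191 to 4124 CPM against 2581 to 3682 CPM (0.09, adjusted p = 0.77), Mitf, the lineage's transcription factor, had a value of 0.12 (adjusted p = 0.79) and Dct, a melanin synthesis enzyme, -0.10 (adjusted p = 0.73). Cell cycle genes had 26 of 43 below 0 (median -0.06), with Mki67, a proliferation marker, at 76.8 to 96.5 CPM against 56.1 to 107.2 CPM. Of 16 genes of melanoma dedifferentiation tested, 13 were above 0 (median 0.36) and Tnc alone rose, and with the fibroblast covariate the median was 0.06. Several of its members are also made by stroma: Sparc, a collagen-binding protein, was at 1905, 2006, 932 and 1397 CPM against 778 to 1422 CPM. It had its high values in libraries 1 and 2, did not pass (adjusted p = 0.49) and turned below 0 without them (-0.052). With controls 1 and 2 left out as well, Sparc was at 0.028.

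Against the treated tumors of the same day, 0 of 10996 genes passed in abscopal tumors by edgeR, 741 had an unadjusted p under 0.05, and DESeq2 and limma-voom also called 0. Fibroblast sums of the treated libraries ran from 94.5 to 4307 CPM. The smallest adjusted p was 0.61, and Gys1, at 181.6, 155.0 and 137.3 CPM in treated libraries, was among the 5 genes of smallest p (log2 fold change -0.51). Spp1 was at a log2 fold change of 1.92 between abscopal and treated (adjusted p = 0.61) and Col6a3 at 0.15. A lack of calls between 4 and 3 libraries does not show that abscopal and treated tumors are alike.

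On day 3, abscopal and control CD45- cells (7 and 4 libraries) were compared in a fit of both days. Of 11548 genes tested, 2 passed on day 3, Klf4 higher (1.0, adjusted p = 0.043) and Sema4c lower (-0.69, adjusted p = 0.043). The effect on day 7 minus that on day 3 passed for 1 gene, 0.00866% of those tested, with 793 at an unadjusted p under 0.05. In simulated counts with the same spread for every gene, this comparison recovered 62% of genes changed by 1 log2 unit. That gene was Klf4, a zinc finger transcription factor of differentiation and stress, with a difference of -1.43 (adjusted p = 0.037). On day 7 it was at 220.8, 305.2, 352.9 and 391.0 CPM in abscopal and 190.9 to 549 CPM in control libraries, with a value of -0.42 that did not pass (adjusted p = 0.39). On day 3 it ran from 306.0 to 660.1 CPM with a median of 389 in the abscopal libraries and from 175.8 to 284.0 CPM in the controls, which did not overlap. Spp1 had a day 3 value of -0.10 and a difference between the days of 2.89 that did not pass (adjusted p = 0.54), and Mgp -0.15 and 3.39 (adjusted p = 0.53). Espn, with a difference of -0.97, was just outside the threshold (adjusted p = 0.054). The stromal matrix list had a median of 0.29 on day 3 and 2.0 on day 7, and the cytokine list 0.11 and 1.49.

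In the CD45+ cells of day 7 (4 abscopal and 10 control libraries), 0 of 10817 genes passed between abscopal and control tumors by edgeR, with 800 at an unadjusted p under 0.05. Of the genes above, Spp1 had a log2 fold change of -0.35 in CD45+ cells (adjusted p = 0.80), Cxcl9 0.38 (adjusted p = 0.76), Ccl2 -0.29 (adjusted p = 0.88) and Cxcl1 -0.72 (adjusted p = 0.76). The class II list had a median of 0.53 there, with H2-Eb1 at 0.50 (adjusted p = 0.56). None of these values passed in immune cells.

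A principal component analysis of the 500 most variable genes over the 15 libraries placed abscopal libraries 1 and 2 at 39.3 and 24.8 on the first component, which held 47.8% of the variance, and libraries 3 and 4 at -5.76 and 8.33. Controls ran from -16.7 to 8.94. The pseudo-F of abscopal against control was 4.16, reached or passed by 11 of the 1365 divisions of the libraries (exact permutation test, one-sided, p = 0.0081). Without abscopal library 1 it was 1.92 (exact permutation p = 0.058).

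The number of calls depended on single libraries. It was 1 without abscopal library 1 or without library 2, and in both cases the gene was Spp1, whereas it was 132 without abscopal library 3 and 64 without library 4. Leaving out single controls gave from 3 genes (without library 3, 4, 8 or 11, each time Spp1, Mgp and Cxcl14) to 62 (without library 1), with 6 without library 6, 9 or 10, 18 without 7, 20 without 5 and 56 without 2. Of the 29 higher genes, 17 had fewer than 3 controls at the level of 10 counts and so entered the test through abscopal and treated libraries, as did 433 of all genes tested. The counts and medians of the lists include such genes.

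**Figure D5:**
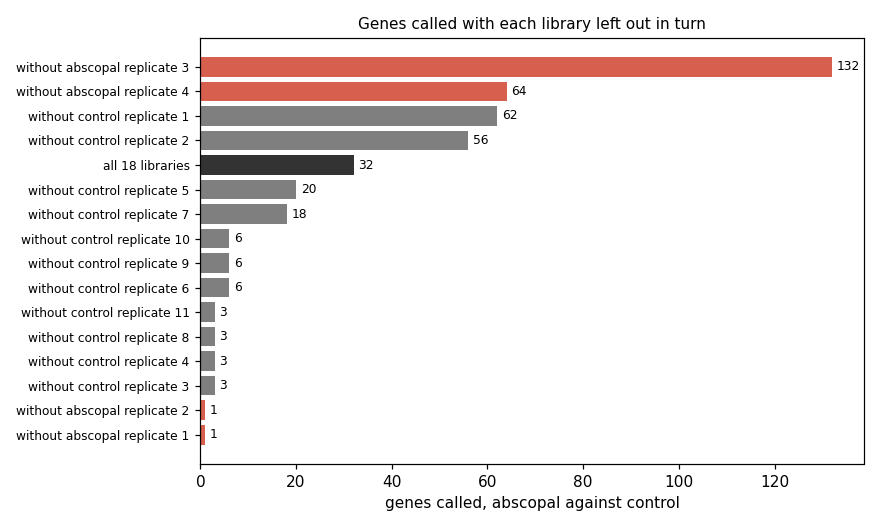
Number of genes called between abscopal and control libraries with all 18 libraries and with each abscopal (red) or control (gray) library left out in turn. The bars run from 1 gene without abscopal library 1 or 2 to 132 without abscopal library 3, against 32 with all libraries (black).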

How the data were processed

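The authors sequenced QuantSeq 3′ libraries of sorted cells, and per the labels demultiplexed reads with bcl2fastq, trimmed them with Trim Galore 0.5.0, aligned them to GRCm38 with STAR 2.6.0, merged reads sharing a molecular identifier, and counted them over genes with featureCounts. The deposited values are whole-number counts per gene and library, not normalized. The strand setting of the counting is not given in the sources used here, and counts of genes with overlapping or antisense partners are therefore uncertain. The table holds 55487 named lines, 120 of which share a symbol, and 0 columns without a sample. The CD45+ tables hold an unnamed line of column totals, equal to 100% of the counts, which was left out. Levels are CPM of the library total, and they count tags whatever a transcript's length.

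Genes were tested on the deposited counts with edgeR 4.0.16 in R 4.3.3 (TMM scaling, filterByExpr with a minimum count of 10 and total of 15, quasi-likelihood test, 15 residual degrees of freedom), with DESeq2 1.42.0 and voom of limma 3.58.1 as alternatives. The study's statistics name no test for single genes. In simulated counts the test recovered 96% of genes changed by 1 log2 unit between abscopal and control, and 100% of those changed by 2. The simulation gave every gene the same spread and changed only genes with a mean of at least 10 CPM. It therefore does not give the share recovered among genes that vary more between libraries, such as those of stroma. Between replicates of a group the smallest chi-square per degree of freedom was 2.61, so none was counted as a duplicate. CT010467.1, annotated as rRNA, took 5.71% to 9.86% of counts, and intervals from counts cover counting error only.

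The members and the 38 gene lists (22 pathways, 16 cell types) were chosen with earlier results of these data known, and lists are described by counts and medians with no test. Named genes were the called genes of largest fold with at least 10 CPM in the higher group, the lower genes of smallest p, up to 3 genes of smallest p and the most abundant of a list, and 20 fixed genes, some of which are not reported here. The other called genes were named after their values were seen. Alternatives were another tool, scaling or filter, the replicate number as a block, the 2 groups alone, libraries of at least 1000000 counts, and each library left out. Leaving out libraries rich in fibroblast markers and using their sum as a covariate were chosen after seeing the data.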

Additional observations from a re-analysis of the deposited data

Results flagged for a closer look

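Among 110 gene and list levels examined in the 4 abscopal libraries, 9 had a library whose gap to its nearest neighbour exceeded 0.829 of the group's range, and chance gives about 1 in 20. Library 1 was highest for Cd93 (63.4 CPM, next 9.24), Rgs5 (54.3 CPM, next 7.98) and the summed adipocyte markers (34.8 CPM, next 5.04). Library 2 was highest for Top2a, a topoisomerase of dividing cells (749 CPM, next 643), and lowest for the summed mitochondrially encoded respiratory chain genes (17180 CPM, next 19814). Library 3 was highest for Pfkl (131.6 CPM, next 116.8) and lowest for Scd1 (101.7 CPM, next 124.7). Library 4 was highest for Mki67 (96.5 CPM, next 78.4) and the class II chain H2-Eb1 (31.7 CPM, next 15.1).

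The effect of abscopal against control differed between the days for Klf4, by -1.43 on the log2 scale (edgeR interaction test, adjusted p = 0.037). It was higher on day 3 and had a value of -0.42 on day 7 that did not pass.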

How the results depend on the processing

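The 32 genes called between abscopal and control came to 11 with DESeq2, 1 with limma-voom, 398 without the filter on low counts and 62 in a fit of only the 2 groups, with 10, 1, 32 and 20 of the 32 among them. With the replicate number as a block 0 genes were called, and 909 had an unadjusted p under 0.05. The correlations of same-numbered abscopal and control libraries were 0.24, 0.09, 0.15 and 0.03, so the numbers were not taken to pair the samples. Leaving out 1 library gave 1 to 132 calls, fewer than with all in 11 of 15 cases. Both ways of leaving out the fibroblast-rich libraries (abscopal 1 and 2, or these and controls 1 and 2) and the fibroblast covariate gave 0. Abscopal against treated gave 8 calls without the filter, and 0 to 0 with a library left out. The difference between days had 1 call, against 6 with DESeq2, 39 without the filter, 0 with limma-voom, library totals or the replicate block, and 0 to 2 with a library left out. The pseudo-F ran from 1.92 to 6.21 with a library left out and lost its call without abscopal 1 alone. The cause of these changes was not tested.

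Of the gene values, 17 of the alternatives turned the sign. Without abscopal libraries 1 and 2 these were Cd93 (-0.54), Cxcl9 (-0.24), Mgp (-0.13), Slfn5 (-0.40), Sparc (-0.052) and Rgs5 (-0.53), and without controls 1 and 2 as well Cd93 (-0.64), Mgp (-0.012) and Rgs5 (-0.62). In that second setting Cxcl9 and Sparc were above 0 (0.29 and 0.028). With the fibroblast covariate they were Mki67 (0.072), Cxcl10 (-0.16), Slfn5 (-0.12), Col1a1 (-0.24) and Sparc (-0.12), where Col1a1 is itself the most abundant member of the sum. Calr was at 0.0045 with library totals and with a library left out ran from -0.065 to 0.021, and Hmgb1 from -0.11 to 0.0078. Calls of genes low in controls are limited by depth, since 10 counts correspond to 4.18 CPM.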

Other observations

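Erythroid markers were at lower values in abscopal libraries without passing: all 4 genes tested had a log2 fold change below 0 (median -1.28), but with the replicate number as a block 3 of 4 were above 0 (median 0.79). The 7 markers summed to 14.6, 5.04, 29.5 and 88.2 CPM in abscopal libraries and to 11.5 to 173.0 CPM in controls. The 7 mitochondrially encoded respiratory chain genes tested were all below 0 (median -0.22, none called), and 31 of 51 nuclear ones were below 0 (median -0.03). Cytosolic ribosomal protein genes had 46 of 75 above 0 (median 0.03), p53 targets 12 of 19 below 0 (median -0.11), immediate early genes 16 of 31 above 0 (median 0.01) and Id and TGF-beta feedback genes 13 of 19 above 0 (median 0.20), with none called in any of these lists.

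Anxa1, a danger signal gene that binds formyl peptide receptors, was at 76.4, 90.3, 91.8 and 125.7 CPM in abscopal and 35.1 to 109.8 CPM in control libraries (0.69, adjusted p = 0.32). Psmb8, an immunoproteasome subunit, was at 46.8, 34.4, 16.4 and 44.4 CPM against 3.04 to 31.0 CPM (1.05, adjusted p = 0.48). Socs1 and Gbp3, induced by interferon gamma, had values of 1.73 and 1.17 (adjusted p = 0.18 and 0.32), and Gbp3 had its highest level, 27.3 CPM, in abscopal library 4. Sat1, a polyamine acetyltransferase, was at 12.7 to 24.1 CPM against 9.73 to 15.4 CPM (0.62, adjusted p = 0.19).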
